A study of Mus musculus with 69 samples.

Results

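Bone marrow-derived macrophages (BMDMs) of the wild-derived mouse strain PWK (PWK/PhJ) were compared after 24 hours of interleukin-4 (IL-4) at 20 ng/ml and without it. These were the 5 PWK libraries, 3 after IL-4 and 2 basal, of 69 samples in the series. The PWK libraries belong to an RNA-seq table of 29 libraries, which also covers C57 (C57BL/6J), BALB (BALB/cJ), NOD (NOD/ShiLtJ) and SPRET (SPRET/EiJ) BMDMs with 3 basal and 3 IL-4 libraries each. The cells came from the marrow of young adult female mice, and all of them, basal cells included, were grown with macrophage colony-stimulating factor (M-CSF). They carried no engineered allele. A separate time course of C57 BMDMs, with 2 libraries at each of 0, 1, 6 and 24 hours of IL-4, was used to read the timing of the PWK genes. BMDMs with floxed Egr2 alleles and a LyzM-Cre transgene, which drives deletion in myeloid cells, were compared with floxed controls without Cre, with 2 libraries each after 24 hours of IL-4. Neither of these comparisons holds PWK cells.

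IL-4 is a cytokine of type 2 immunity. It binds a receptor made of IL-4Rα and the common γ chain, the receptor activates JAK kinases, and these phosphorylate STAT6, which enters the nucleus and binds DNA. In macrophages this leads to alternative activation, a state known for arginase, lectin receptors and chemokines that attract monocytes, eosinophils and T cells, and for lower output of inflammatory cytokines. EGR2 and PPARγ are transcription factors that IL-4 induces and that act on later genes of the same state.

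The PWK libraries held between 11.9 M and 18.7 M tags. Expression is given in TPM, a share of the transcripts in a library that is corrected for gene length and depth. Pearson r between libraries of a group, across genes on the log scale, ran from 0.996 to 0.997. The label of macrophages was checked against 12 macrophage markers. All 12 reached 1 TPM in at least 1 PWK library, and 11 did so in at least 2 of the 5. Lyz2 was at 5844 and 6086 TPM in the basal libraries and Adgre1, the gene of F4/80, at 360 and 337 TPM. Summed over the list, macrophage markers were between 16150 and 16480 TPM basally and between 19420 and 19740 TPM after IL-4. Markers of T, B and NK cells summed to at most 1.43 TPM in any PWK library, with Cd3e, Cd79a and Ms4a1 listed at 0 in all 5. Mast cell, basophil and eosinophil markers summed to at most 0.353 TPM. Neutrophil and granulocyte precursor markers summed to between 563 and 615 TPM in all 5 libraries, mostly S100a8 and S100a9, with basal and IL-4 libraries overlapping. This sum hides falls of single members. Of 7 tested, 2 (28.6%) were lower by less than 2-fold at an adjusted p under 0.05 from limma, and 0 were higher. Among all genes tested, 5.53% were lower and 17.0% higher in this way. Camp had the lowest log2 fold change, -0.88, and passed 2-fold after rescaling by the median of gene ratios. The part of such cells in the falls of other genes was not tested. Dendritic cell markers summed to between 5.97 and 6.26 TPM basally and between 2.97 and 3.51 TPM after IL-4, and the value was mostly Ccr7.

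**Figure D1:**
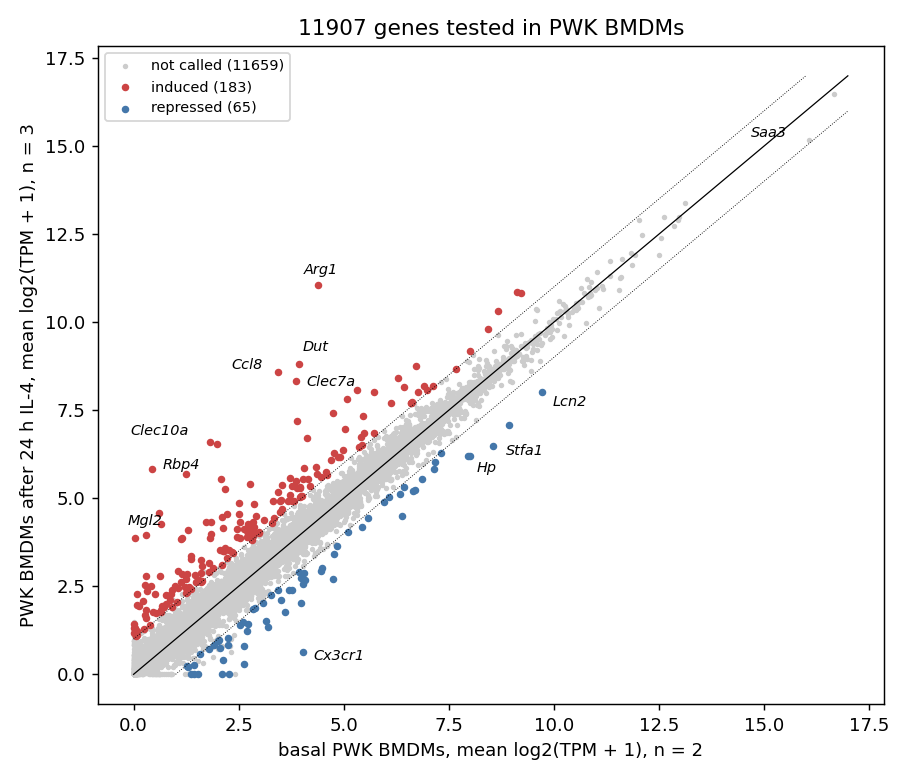
Mean expression of each of the 11907 genes tested in PWK BMDMs, basal on the horizontal axis and after 24 hours of IL-4 on the vertical axis, both as log2(TPM + 1). Red points are the 183 induced genes and blue points the 65 repressed genes, dotted lines mark a 2-fold change, and Arg1 lies farthest above the diagonal.

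More genes were called induced than repressed in PWK BMDMs after IL-4. Of 11907 genes tested, 183 were induced (1.54%) and 65 repressed (0.546%), where a gene was called at a change over 2-fold on the log2(TPM + 1) scale with an adjusted p under 0.05 from limma. That is 73.8% of all called genes on the induced side. The induced genes together held 0.731% of all TPM in basal cells and 2.80% after IL-4, and the repressed genes 0.583% and 0.198%. Of the induced genes, 41 changed over 4-fold and 15 over 8-fold, while 6 repressed genes passed 4-fold and only Cx3cr1 passed 8-fold. A basal mean under 1 TPM was found for 38 of the induced genes. Of the called genes, 11 induced and 15 repressed ones were predicted genes or genes of microRNAs or small nucleolar RNAs. In 179 of the 183 induced genes the lowest IL-4 library was above the highest basal library. In 64 of the 65 repressed genes all IL-4 libraries were below both basal libraries. The genes were called from these same libraries, so this separation describes them and adds no support. The share of all genes tested with separated libraries is not given here. With a pseudocount of 0.1 TPM the counts were 335 induced and 111 repressed, and with 5 TPM they were 92 and 25. The plot of basal against IL-4 expression shows both sets against all genes tested.

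The largest rise was that of Arg1, which encodes arginase 1, the enzyme that splits arginine into ornithine and urea. Its basal libraries had 16.7 and 23.8 TPM, and its IL-4 libraries 2134, 2138 and 2181 TPM. The groups lie far apart, and the mean rose 106-fold (log2 fold change 6.68 with a standard error of 0.18, adjusted p = 1.9e-19). Arg1 lies on chromosome 10 at 24915207 to 24927470 (mm10). Rbp4, the carrier of retinol in blood, was near 0 basally with 0.365 and 0.356 TPM. After IL-4 it reached 54.0, 63.5 and 50.0 TPM (log2 fold change 5.38 with a standard error of 0.13, adjusted p = 1.4e-20).

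Chemokine and lectin genes followed. Ccl8, which encodes a chemokine that attracts monocytes and T cells, had 7.99 and 12.2 TPM in the basal libraries and 362, 388 and 393 TPM after IL-4 (log2 fold change 5.13, standard error 0.14). Ccl12, which encodes a ligand of CCR2, went from 0.317 and 0.772 TPM to 25.7, 22.9 and 20.8 TPM, a rise of 3.98 on the log2 scale. Both genes had every IL-4 library above the basal ones, which was a condition for a place among the 15 largest rises. Clec10a and Mgl2 encode galactose-type lectins that bind sugars on glycoproteins and lie next to each other on chromosome 11, from 70130357 to 70170836. Clec10a had 2.27 and 2.76 TPM basally and 97.4, 93.1 and 97.8 TPM after IL-4 (log2 fold change 4.79, standard error 0.20). Mgl2 was listed at 0.055 and 0 TPM and reached 14.4, 11.9 and 14.9 TPM (log2 fold change 3.84, standard error 0.16). The pair are close relatives in sequence, and how reads that match both were assigned is not given in the sources used here. Clec7a, the gene of Dectin-1, a receptor for fungal β-glucan, rose from 12.6 and 14.6 TPM to 319, 331 and 323 TPM (log2 fold change 4.48, adjusted p = 4.5e-24). Mrc1, the mannose receptor CD206, rose from 0.557 and 0.589 TPM to 18.4, 18.5 and 18.1 TPM (log2 fold change 3.62, standard error 0.10).

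Enzymes outside the arginase pathway were among the 15 largest rises as well. Dut encodes dUTPase, which removes dUTP so that uracil is not built into DNA. It had 14.3 and 14.5 TPM in basal cells and 484, 439 and 438 TPM after IL-4, a rise of 4.88 on the log2 scale (standard error 0.09, adjusted p = 1e-22). Gatm, the first enzyme of creatine synthesis, which uses arginine, went from 13.7 and 13.9 TPM to 143, 153 and 137 TPM (log2 fold change 3.30, standard error 0.09). Ch25h, which makes 25-hydroxycholesterol, rose from 3.25 and 3.28 TPM to 39.2, 54.2 and 46.2 TPM (log2 fold change 3.47). In each of these 3 genes the spread within a group was small beside the step between groups. The remaining 4 of the 15 encode membrane proteins. Ms4a4a, of the MS4A family, rose from 2.99 TPM in both basal libraries to between 89.6 and 96.6 TPM. Tarm1, a receptor that signals in myeloid cells, rose from 0.710 and 2.25 TPM to between 46.3 and 56.4 TPM. Scimp, an adaptor of Toll-like receptor signalling, rose from 0.161 and 0.313 TPM to between 13.1 and 16.1 TPM. Il20rb, a receptor chain for IL-20 family cytokines, rose from 3.14 and 3.95 TPM to between 36.2 and 39.6 TPM. Their log2 fold changes were 4.55, 4.45, 3.64 and 3.08.

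**Figure D2:**
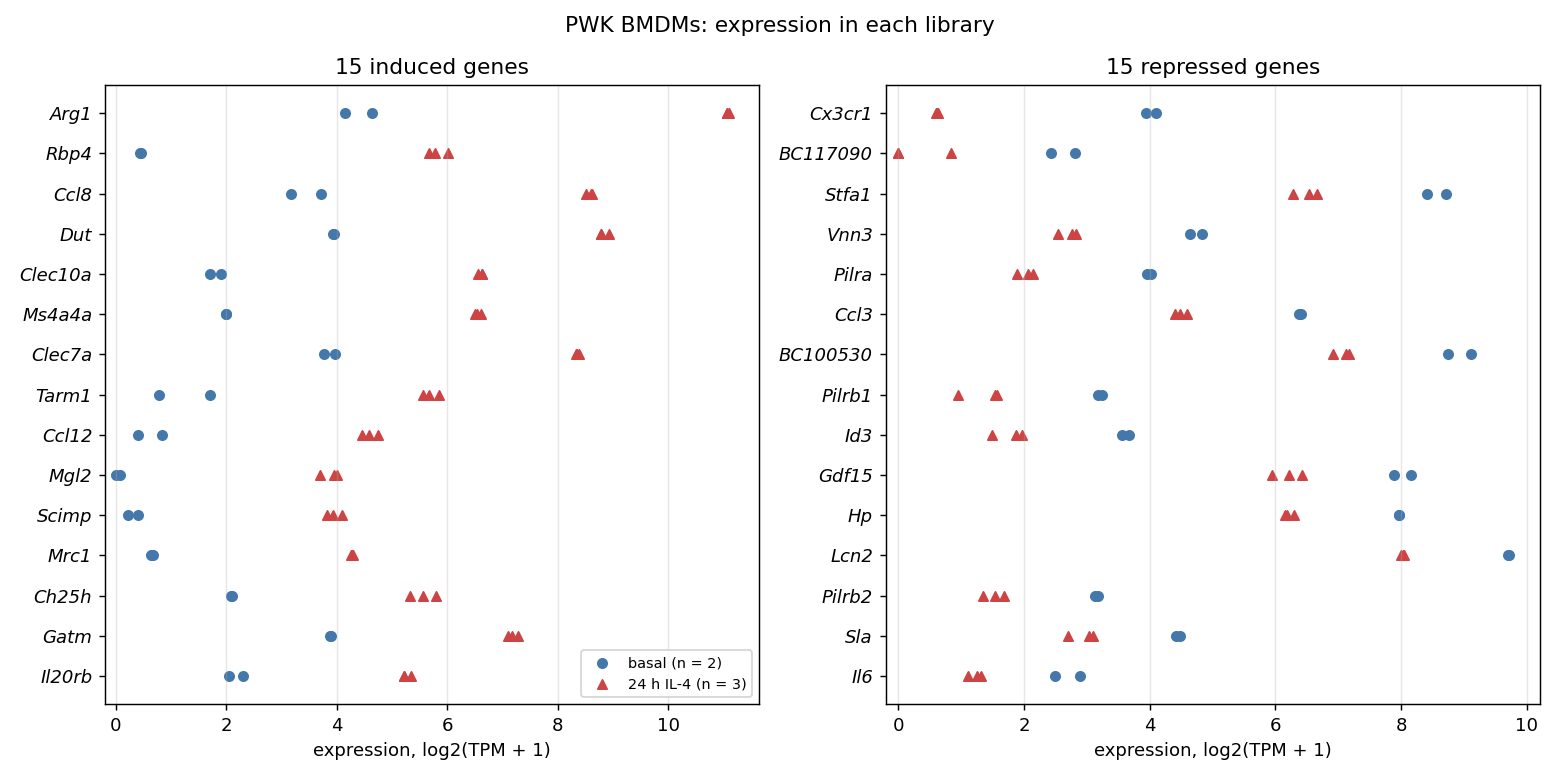
Expression of the 15 induced and 15 repressed genes with the largest changes in PWK BMDMs, as log2(TPM + 1) on the horizontal axis. Each blue circle is 1 of 2 basal libraries and each red triangle 1 of 3 IL-4 libraries. In all 30 genes the circles and triangles do not overlap, which was a condition of their choice.

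Because STAT6 is the factor that IL-4 activates, the promoters of the called genes were searched for the spacing it prefers, TTCNNNNGAA, where N is any base. The motif reads the same on both strands. Promoters were taken from RefSeq on the GRCm38.p6 reference, which is the C57 sequence and not that of PWK, as windows of 300 bases that begin 250 bases before a start site. Of the 183 induced genes, 136 had a window, and 15 of these (11.0%) held the motif. Among the repressed genes it was 2 of 36 (5.56%), among all genes tested 6.56% of 9048, and among all genes with a window 8.01% of 27025. These shares are a description and were not tested. With 3 bases between TTC and GAA, TTCNNNGAA, the share was 8.09% of the induced genes and 8.22% of all genes tested. The sequences before the start sites of 3 induced genes that held the motif, and of Lcn2, which was repressed and held it too, are printed from 5′ to 3′ on the strand of the gene, in lower case with the motif in capitals, to show where it lies. Rbp4 is at chr19:38125322-38125571 on the minus strand, Clec7a at chr6:129472786-129473035 on the minus strand, Itgax at chr7:128129300-128129549 on the plus strand and Lcn2 at chr2:32387740-32387989 on the minus strand.
Rbp4: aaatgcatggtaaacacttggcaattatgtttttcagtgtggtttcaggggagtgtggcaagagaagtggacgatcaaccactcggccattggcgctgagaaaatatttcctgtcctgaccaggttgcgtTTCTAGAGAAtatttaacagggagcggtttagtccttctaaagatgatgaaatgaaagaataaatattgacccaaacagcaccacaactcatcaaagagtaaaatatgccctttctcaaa
Clec7a: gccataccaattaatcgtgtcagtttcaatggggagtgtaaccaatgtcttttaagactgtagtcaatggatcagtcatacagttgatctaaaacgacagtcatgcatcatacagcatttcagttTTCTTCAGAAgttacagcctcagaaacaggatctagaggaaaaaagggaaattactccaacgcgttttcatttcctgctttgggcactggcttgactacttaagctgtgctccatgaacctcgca
Itgax: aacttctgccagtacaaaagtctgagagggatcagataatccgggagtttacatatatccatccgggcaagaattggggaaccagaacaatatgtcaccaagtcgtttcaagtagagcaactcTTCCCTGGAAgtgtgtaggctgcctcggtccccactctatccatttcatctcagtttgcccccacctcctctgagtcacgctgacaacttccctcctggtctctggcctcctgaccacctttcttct
Lcn2: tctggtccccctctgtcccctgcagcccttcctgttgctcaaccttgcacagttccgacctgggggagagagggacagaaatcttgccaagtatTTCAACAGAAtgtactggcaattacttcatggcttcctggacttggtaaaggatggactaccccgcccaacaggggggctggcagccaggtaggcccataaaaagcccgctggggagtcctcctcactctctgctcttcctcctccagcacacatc
The first base of the motif lies 120 bases before the start site of Rbp4, 125 before that of Clec7a, 127 before that of Itgax and 156 before that of Lcn2.

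The largest fall was that of Cx3cr1, the receptor for fractalkine that marks resident macrophages and patrolling monocytes. It had 16.2 and 14.3 TPM in the basal libraries and 0.554, 0.535 and 0.522 TPM after IL-4, 28.4-fold less (log2 fold change -3.40 with a standard error of 0.10, adjusted p = 2.1e-18). Genes of 2 clusters fell together. The stefin genes Stfa1, BC100530 and BC117090, which encode inhibitors of cysteine proteases, lie on chromosome 16 from 36277148 to 36367570. Stfa1 had 339 and 420 TPM basally and 101, 77.0 and 91.5 TPM after IL-4 (log2 fold change -2.07, standard error 0.21). BC100530 went from 430 and 553 TPM to 138, 120 and 144 TPM (log2 fold change -1.86), and BC117090 from 4.41 and 6.01 TPM to 0, 0.787 and 0 TPM (log2 fold change -2.34). These are near-identical copies, so the split of reads among them is uncertain. On chromosome 5, the paired immunoglobulin-like receptor genes Pilra, Pilrb1 and Pilrb2 fell by 1.95, 1.85 and 1.63 on the log2 scale. Pilra, which encodes the inhibitory member, had 14.5 and 15.2 TPM basally and 3.16, 2.72 and 3.42 TPM after IL-4.

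Among the other large falls, Ccl3, an inflammatory chemokine that binds CCR1, dropped from 83.9 and 82.1 TPM to 23.1, 20.1 and 21.3 TPM (log2 fold change -1.90, standard error 0.09). Vnn3, a pantetheinase gene, fell from 24.1 and 27.4 TPM to between 4.80 and 6.09 TPM. Id3, an inhibitor of basic helix-loop-helix factors, fell from 10.8 and 11.7 TPM to between 1.80 and 2.93 TPM. Gdf15, a stress-induced cytokine of the TGF-β family, fell from 234 and 283 TPM to between 60.3 and 84.7 TPM, with the widest standard error of the 15 genes, 0.27. Sla, which encodes an adaptor that dampens receptor signalling, fell from 20.3 and 21.4 TPM to between 5.50 and 7.58 TPM. The IL-4 libraries of these 5 genes were all below the basal ones, which was a condition for a place among the 15 largest falls. The plot of single libraries shows all 30 genes.

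Most genes of the IL-4 signalling path stayed within 2-fold at the RNA level. Of 13 receptor, kinase and feedback genes tested, 1 was induced and 0 were repressed, against 1.54% and 0.546% of all genes tested. The median log2 fold change was 0.21 against 0.08 over all genes tested. A further 5 (38.5%) were higher and 1 (7.69%) lower by less than 2-fold at an adjusted p under 0.05. Among all genes tested these shares were 17.0% and 5.53%. The induced gene was Cish, a feedback inhibitor of cytokine receptors, with 1.30 and 1.62 TPM basally and 15.6, 16.6 and 16.4 TPM after IL-4 (log2 fold change 2.81, standard error 0.11). Socs1 and Socs2, other inhibitors of the SOCS family, were just under the threshold with log2 fold changes of 0.95 and 0.99. Socs1 was called without basal replicate 1 (1.15) and without IL-4 replicate 3 (1.11), and Socs2 without basal replicate 2 (1.21), IL-4 replicate 1 (1.01) or IL-4 replicate 3 (1.03). With a replicate block the values were 1.11 and 1.03, and 3 of the 13 genes were then induced. Stat6 had 42.6 and 40.8 TPM basally and between 43.6 and 45.1 TPM after IL-4 (log2 fold change 0.09, adjusted p = 0.41). Il4ra, the receptor's specific chain, had 31.8 and 34.2 TPM and then between 35.7 and 36.8 TPM (log2 fold change 0.14, adjusted p = 0.14).

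Of 19 transcription factors of the IL-4 response, 4 were induced and 0 repressed, against 1.54% and 0.546% of all genes tested. The median log2 fold change was 0.10. Egr2 rose from 3.37 and 3.44 TPM to 18.0, 17.4 and 15.01 TPM (log2 fold change 2.01 with a standard error of 0.10, adjusted p = 4.6e-14). Pparg, the receptor for fatty acid ligands, rose from 2.67 and 2.55 TPM to 15.2, 14.4 and 14.9 TPM (log2 fold change 2.13). Nfil3 and Batf3, both of the bZIP class, rose by 1.53 and 1.34 on the log2 scale. Msx3, a homeobox gene, was listed at 0 in 4 of the 5 PWK libraries and at 0.028 TPM in the other, an IL-4 library. In C57 it had a mean of 0.986 TPM basally and 18.1 TPM after IL-4.

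The list of effector genes of alternative activation held more induced members than any other of the 17. Of 23 tested, 13 were induced and 0 repressed, against 1.54% and 0.546% of all genes tested. The median log2 fold change was 1.27. Its members are known genes of this state, and the list was chosen with earlier results of these data known. Besides Arg1 and the lectins, Cdh1, the gene of E-cadherin, rose from 0.095 and 0.037 TPM to between 2.64 and 3.49 TPM. Itgax, the integrin CD11c, rose from 29.6 and 28.9 TPM to 69.0, 77.6 and 69.0 TPM (log2 fold change 1.27, standard error 0.07). Atp6v0d2, a subunit of the proton pump that also acts in macrophage fusion, rose from 25.4 and 24.1 TPM to between 64.4 and 69.6 TPM. Several textbook markers were scarce in the PWK libraries. Chil3, which encodes the chitinase-like protein Ym1, had 0.552 and 3.01 TPM basally and 2.96, 4.27 and 7.24 TPM after IL-4. These libraries overlap, and its log2 fold change of 1.16 was 0.47 (adjusted p = 0.136) without basal replicate 1, 1.84 without basal replicate 2, and 0.87, under the threshold, without IL-4 replicate 3. Retnla, the gene of RELMα, was listed at 0 in all 5 PWK libraries. Ccl24, a chemokine for eosinophils, rose from 0.131 and 0.319 TPM to between 1.56 and 2.95 TPM (log2 fold change 1.31). Ccl17 and Ccl22, ligands of CCR4, had log2 fold changes of 0.72 and 0.63, under the threshold. Ccl17, which did not pass 1.18 TPM in any PWK library, was at 2.38 and called with a pseudocount of 0.1 TPM. Low levels were not particular to PWK for all of these genes. In the C57 time course after 24 hours of IL-4, means were 1.175 TPM for Ccl17, 4.29 TPM for Ccl24 and 2028 TPM for Chil3. Ccl17 was at 0 in both floxed control libraries of the Egr2 comparison after 24 hours.

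In the arginine and polyamine list, 2 of 16 genes were induced, Arg1 and Slc7a2, and 0 were repressed. Among all genes tested 1.54% were induced and 0.546% repressed. Slc7a2, a transporter of arginine and other cationic amino acids, rose from 90.0 and 81.7 TPM to 288, 298 and 267 TPM (log2 fold change 1.72, standard error 0.08). Its libraries were separate, and 6 further genes of the list (37.5%) were higher by less than 2-fold at an adjusted p under 0.05, against 17.0% of all genes tested. These included Arg2, the mitochondrial arginase, at 0.54, and Sat1, which acetylates polyamines, at 0.61 on the log2 scale. The median of the list was 0.28.

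Chemokine genes moved in both directions. Of 20 tested, 7 were induced and 1, Ccl3, was repressed, against 1.54% and 0.546% of all genes tested. The median log2 fold change was 0.67. Ccl2, Ccl7, Ccl12 and Ccl8 lie within 82035577 to 82116799 on chromosome 11 and were all induced. Ccl7 rose from 32.9 and 33.0 TPM to 207, 248 and 223 TPM (log2 fold change 2.74), and Ccl2 from 63.1 and 41.9 TPM to 239, 279 and 254 TPM (log2 fold change 2.30, standard error 0.20). Cxcl3, a chemokine for neutrophils, rose from 73.6 and 81.2 TPM to 327, 349 and 350 TPM (log2 fold change 2.13). Its neighbour Ppbp rose from 1.33 and 0.837 TPM to between 6.33 and 7.44 TPM. Ccl5, a chemokine for T cells and eosinophils, was lower without passing 2-fold, with 518 and 504 TPM basally and between 306 and 330 TPM after IL-4 (log2 fold change -0.70).

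Of 15 C-type lectin genes tested, 4 were induced and 0 repressed, against 1.54% and 0.546% of all genes tested. The 4 were Clec10a, Clec7a, Mgl2 and Mrc1. A further 6 (40.0%) were lower by less than 2-fold, against 5.53% of all genes tested, and the median of the list was -0.04. Among them was Clec4n, the gene of Dectin-2, with 109 and 108 TPM basally and between 58.5 and 62.4 TPM after IL-4 (log2 fold change -0.84). Reads of the Clec4 genes may be shared within the family. Of 18 Fc, scavenger and dead-cell uptake receptors, 3 were induced and 0 repressed, against the same 1.54% and 0.546%. Olr1, the receptor for oxidized LDL, rose from 0.287 and 0.195 TPM to between 3.61 and 4.85 TPM, and Cd36, a scavenger receptor for lipids, from 9.91 and 11.2 TPM to between 38.8 and 41.6 TPM. Fcgr2b, the inhibitory Fcγ receptor, passed the threshold narrowly, with 205 and 204 TPM basally and between 403 and 417 TPM after IL-4 (log2 fold change 1.01). It was at 1.00 and not called without IL-4 replicate 2, and at 0.88 after rescaling by the median of gene ratios. Marco, a scavenger receptor for bacteria, had 5.78 and 6.50 TPM basally and 2.23, 1.94 and 3.82 TPM after IL-4. Its log2 fold change of -0.997 was just short of 2-fold, and was -1.11 after the same rescaling, -1.21 without IL-4 replicate 3 and -1.07 without basal replicate 1, each past the threshold.

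The list of inflammatory cytokine and innate response genes held more repressed members than any other of the 17. Of 29 tested, 8 were repressed and 2 induced, against 0.546% and 1.54% of all genes tested. The median log2 fold change was -0.18. Hp, the hemoglobin-binding protein haptoglobin, fell from 248 and 249 TPM to 71.6, 69.9 and 77.6 TPM (log2 fold change -1.75, standard error 0.11). Lcn2, an iron-siderophore binding protein, fell from 844 and 832 TPM to 262, 261 and 256 TPM (log2 fold change -1.69, standard error 0.11). Il6 fell from 4.60 and 6.43 TPM to 1.50, 1.15 and 1.39 TPM (log2 fold change -1.46, standard error 0.18). Tnf fell from 26.8 and 28.6 TPM to 13.3, 10.5 and 10.8 TPM (log2 fold change -1.20). All IL-4 libraries of these 4 genes were below both basal libraries. Fpr2 and its neighbour Fpr1, receptors for bacterial formyl peptides, fell by 1.45 and 1.16, Il12b by 1.14 and Tlr2 by 1.10 on the log2 scale. Saa3, an acute-phase protein and a very abundant transcript of these cells, was at 67050 and 70120 TPM basally and at 36510, 35350 and 38880 TPM after IL-4. Its log2 fold change of -0.89 did not pass 2-fold, and was -1.02 after rescaling by the median of gene ratios. With a pseudocount of 5 TPM the counts were 4 repressed and 0 induced, without Il6, Il12b, Tnf and Fpr1. A further 4 genes (13.8%) were higher and 4 (13.8%) lower by less than 2-fold at an adjusted p under 0.05 from limma. Among all genes tested these shares were 17.0% and 5.53%. Lower in this way was Il1b, the gene of the cytokine IL-1β. It had 110 and 124 TPM basally and between 58.9 and 66.7 TPM after IL-4 (log2 fold change -0.90). The induced genes were Toll-like receptors, both under 2-fold with the pseudocount of 5 TPM. Tlr4, the receptor for lipopolysaccharide, rose from 3.91 and 3.75 TPM to 9.92, 10.8 and 10.8 TPM (log2 fold change 1.25), and Tlr8, an RNA sensor, from 1.52 and 0.934 TPM to between 5.29 and 7.69 TPM (log2 fold change 1.72).

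Of 30 interferon-stimulated genes 0 were called, where 1.54% of all genes tested were induced and 0.546% repressed. By less than 2-fold at an adjusted p under 0.05, 2 (6.67%) were higher and 2 (6.67%) lower. Among all genes tested these shares were 17.0% and 5.53%. Of 15 MHC class II and costimulatory genes 0 were called by limma. By less than 2-fold, 1 (6.67%) was higher and 4 (26.7%) were lower, against the same 17.0% and 5.53%. H2-Ab1, a class II chain, had 242 and 237 TPM basally and between 156 and 174 TPM after IL-4 (log2 fold change -0.53, adjusted p = 1.2e-05).

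Growth factor, matrix and protease genes included 6 induced and 1 repressed of 23 tested, against 1.54% and 0.546% of all genes tested. The median log2 fold change was 0.33. Mmp13, a collagenase, rose from 39.1 and 39.2 TPM to 284, 264 and 257 TPM (log2 fold change 2.74, standard error 0.10). Its neighbour Mmp12, the macrophage elastase, rose from 550 and 573 TPM to 1808, 1869 and 1860 TPM (log2 fold change 1.72). Timp1, an inhibitor of such proteases, rose from 3.16 and 4.29 TPM to 26.9, 18.7 and 22.5 TPM (log2 fold change 2.32). Hbegf, a growth factor of the EGF family, rose from 0.071 and 0.035 TPM to between 3.56 and 4.53 TPM. F10, the gene of coagulation factor X, rose by 1.38 on the log2 scale, from 354 and 337 TPM to between 879 and 923 TPM, and F13a1, which encodes a chain of coagulation factor XIII, fell from 97.7 and 102 TPM to between 33.9 and 39.6 TPM (log2 fold change -1.45). Igf1 rose from 0.296 and 0.553 TPM to between 3.72 and 4.10 TPM. Stromal and erythroid markers, 12 genes of which 3 reached 1 TPM, summed to between 204 and 212 TPM basally and between 106 and 113 TPM after IL-4. Nearly all of this was Dcn, a matrix proteoglycan of fibroblasts, at 201 and 208 TPM and then between 104 and 110 TPM, while Col3a1 and Hbb-bs were listed at 0. In bulk RNA, fewer cells of a type and less RNA per cell cannot be told apart, and the part of such cells in the changes of matrix genes was not tested.

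Metabolic and proliferation lists were read against the 1.54% induced and 0.546% repressed among all genes tested. Of 26 cell cycle and DNA replication genes 0 were called, though 8 (30.8%) were higher by less than 2-fold, against 17.0% of all genes tested, and the median was 0.22. Dut, described as the fourth largest rise, was thus not accompanied by a called change among the 26. Of 22 sterol and fatty acid synthesis genes, 20 lipid use genes and 16 antioxidant genes 0 were called, with medians of 0.01, 0.26 and -0.19. By less than 2-fold, 1 synthesis gene (4.55%) was higher and 3 (13.6%) were lower. In the antioxidant list 1 (6.25%) was higher and 5 (31.2%) were lower. Among all genes tested these shares were 17.0% and 5.53%. In the lipid use list 11 genes (55.0%) were higher by less than 2-fold, such as Abcg1, a cholesterol exporter (log2 fold change 0.68). Hmox1, which encodes the enzyme that degrades heme, had 1759 and 1705 TPM basally and between 999 and 1022 TPM after IL-4 (log2 fold change -0.78). Of 20 glycolysis genes 1 was repressed, the glucose transporter gene Slc2a3, which fell from 5.14 and 5.05 TPM to between 1.57 and 2.06 TPM. Of 24 lysosomal genes 2 were induced, Atp6v0d2 and Ctsl, a cathepsin gene that rose from 257 and 254 TPM to between 570 and 608 TPM. In this list 11 more (45.8%) were higher and 4 (16.7%) lower by less than 2-fold. Ocstamp, a gene of osteoclast fusion and 1 of 2 induced genes among 8 tested in that marker list, rose from 0 and 0.084 TPM to between 0.744 and 1.44 TPM. Its log2 fold change of 1.04 was 0.94 without IL-4 replicate 2, 0.98 without basal replicate 1 and 0.99 without IL-4 replicate 1, and then not called. Acp5 and Ctsk, defining genes of osteoclasts, had log2 fold changes of -0.02 and -0.11.

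**Figure D3:**
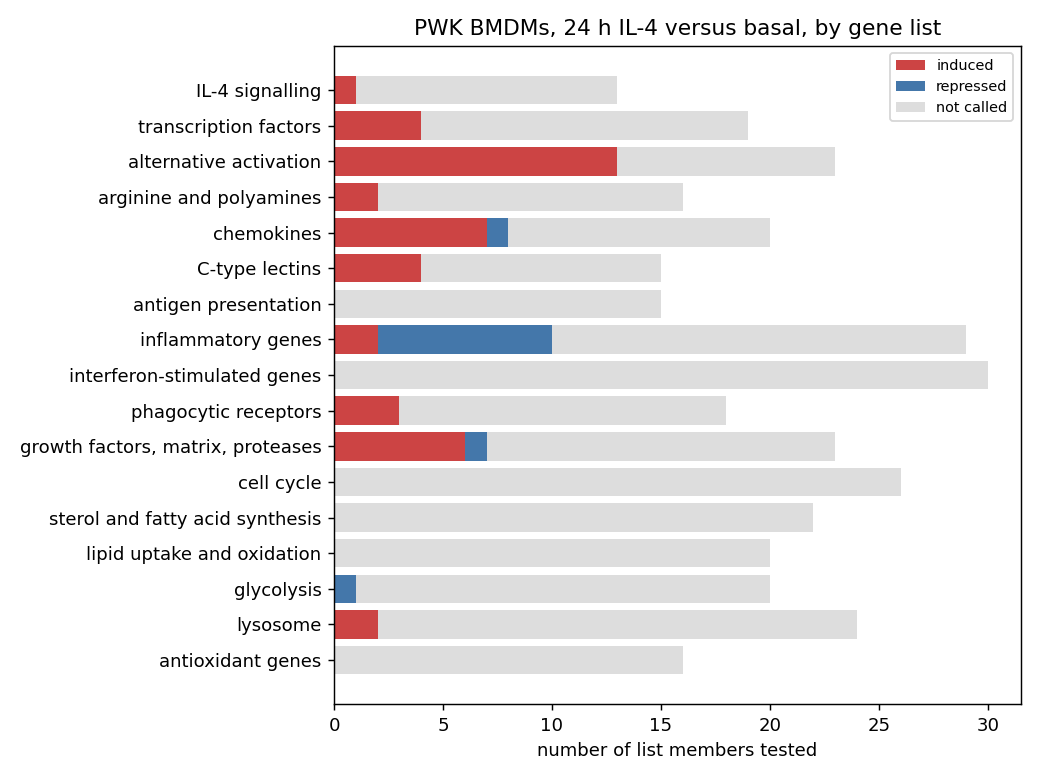
Number of genes induced (red), repressed (blue) and not called (grey) in PWK BMDMs after 24 hours of IL-4, for each of 17 gene lists. Alternative activation has 13 of 23 members induced, the inflammatory list 8 of 29 repressed, and 6 lists have no call. Among all genes tested 1.54% were induced and 0.546% repressed.

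The same contrast in the other strains gave the setting for PWK. Of the genes tested, 2.28% were induced and 1.53% repressed in C57, 1.27% and 0.815% in BALB, 0.731% and 0.462% in NOD, and 2.32% and 1.62% in SPRET. Of the 183 genes induced in PWK, 30 were also induced in all of the other 4 strains, 44 in 3, 28 in 2, 41 in 1 and 40 in none. The overlap with C57 was 121 genes, which is 66.1% of the PWK list and 44.6% of the C57 list. For SPRET it was 92 genes, 50.3% and 33.3%, for BALB 79 genes, 43.2% and 52.3%, and for NOD 57 genes, 31.1% and 65.5%. Of the 65 genes repressed in PWK, 6 were repressed in all 4 other strains and 24 in none. Median log2 fold changes of the PWK-induced genes were 1.35 in C57, 1.04 in SPRET, 0.81 in BALB and 0.70 in NOD. A gene called in 1 strain and not in another is not shown to differ between them, so the difference itself was tested. The response in PWK was over 2-fold larger than the mean response of the other 4 strains for 71 genes (0.596%) and over 2-fold smaller for 40 genes (0.336%). These are signed differences, so a gene that fell more in PWK counts as smaller. Of the 71 genes, 41 were induced, 4 repressed and 26 not called in PWK, and of the 40 genes 8, 15 and 17. Larger and smaller differences were 57 and 49 after rescaling by the median of gene ratios and 56 and 52 after quantile normalization.

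**Figure D4:**
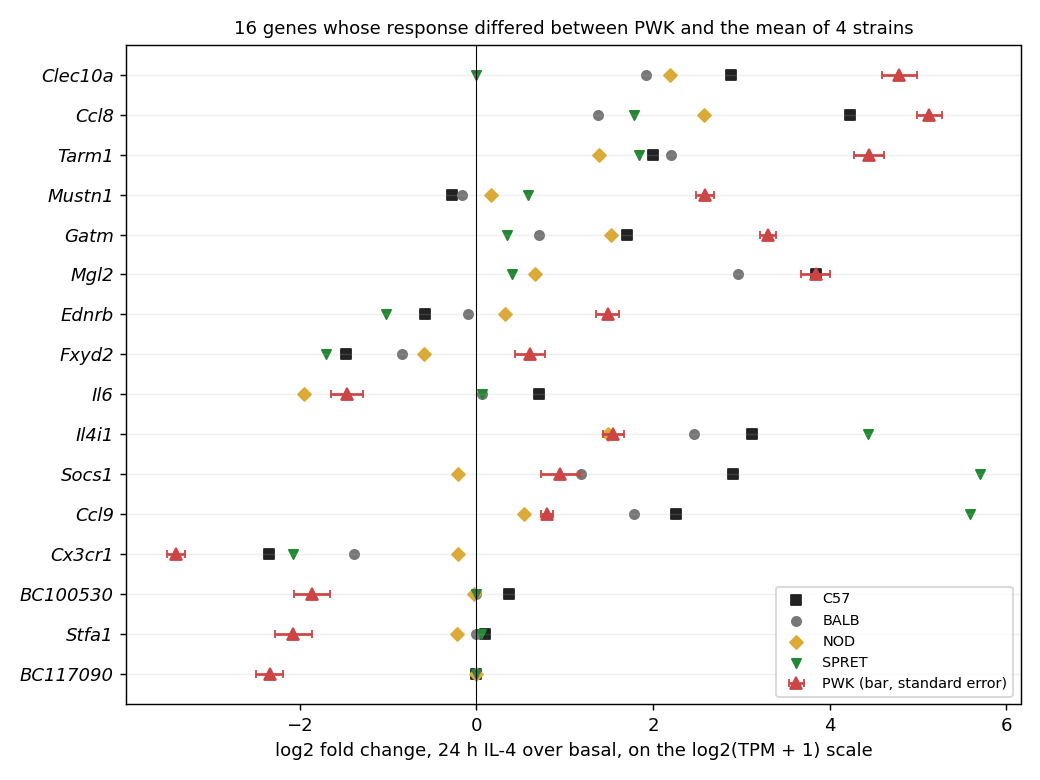
Log2 fold change after 24 hours of IL-4 in each of 5 strains for the 16 genes named for the difference between PWK and the mean of the other 4. Red triangles are PWK with its standard error, and for Clec10a, Ccl8, Tarm1, Mustn1, Gatm, Ednrb and Fxyd2 PWK lies to the right of all other strains.

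Clec10a had the largest difference, 3.05 on the log2 scale (standard error 0.22, adjusted p = 5.2e-10). After IL-4 its mean was 96.1 ± 2.59 TPM (SD, n = 3) in PWK, 38.9 TPM in C57, 15.5 TPM in BALB, 6.86 TPM in NOD and 16.8 TPM in SPRET. The basal means were 2.51 TPM in PWK and 4.39 TPM in C57, and SPRET was at 16.8 TPM basally as well, with a log2 fold change of 0.00. Its neighbour Mgl2 differed by 1.87 from the mean of the others, but not from C57, where the log2 fold change was 3.84 as in PWK (difference 0.00, adjusted p = 1.0). In the separate C57 time course, whose table was normalized on its own, the log2 fold changes at 24 hours were lower, 2.63 for Mgl2, 1.35 for Clec10a and 1.09 for Ccl8, against 3.84, 2.88 and 4.23 in the C57 libraries used here. With a pseudocount of 5 TPM the difference of Mgl2 from the mean of the others was 0.68. Ccl8 differed by 2.64 (standard error 0.16). Its level after IL-4 was higher in C57, at 1154 TPM, than in PWK, at 381 ± 16.7 TPM (SD, n = 3), since the C57 basal mean was 60.3 TPM and that of PWK 10.1 TPM. The difference in response from C57 was 0.90 (adjusted p = 0.0014), and from SPRET 3.35. Tarm1 differed by 2.60, and its PWK response exceeded that of each other strain, by between 2.26 and 3.06. Gatm differed by 2.22 (standard error 0.10), with 144 ± 8.35 TPM (SD, n = 3) after IL-4 in PWK against means between 24.2 and 43.1 TPM in the other strains.

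Some genes responded in PWK where the level was far from that of the other strains. Mustn1, a small nuclear protein gene of muscle and bone, had 16.0 and 16.8 TPM basally in PWK and 105, 102 and 103 TPM after IL-4 (log2 fold change 2.59). In the other strains its means were at or below 4.68 TPM in both conditions, and the difference in response was 2.51 (standard error 0.11, adjusted p = 3.3e-14). Ednrb, the endothelin receptor type B, rose in PWK from 1.03 and 1.33 TPM to between 4.51 and 5.56 TPM, a level far below the basal 40.9 TPM of C57 (difference 1.83, and 0.92 with a pseudocount of 5 TPM). Fxyd2, a regulator of the sodium pump, had 2.29 and 5.50 TPM basally in PWK and 6.86, 4.73 and 6.75 TPM after IL-4, which overlap. It differed by 1.76, and its log2 fold change was between -1.70 and -0.59 in the other strains, where it was far more abundant. Among smaller responses, Stfa1, BC100530 and BC117090 differed by -2.05, -1.95 and -2.34, and these genes had under 1 TPM in every library of the other strains. A fall could therefore not be measured in those strains, and the difference is set by the PWK fall alone. With a pseudocount of 0.1 TPM the differences of Stfa1 and BC100530 were -1.95 (adjusted p = 0.122) and -2.31 (adjusted p = 0.0953). Cx3cr1 differed by -1.90, with a basal level of 15.3 ± 1.35 TPM (SD, n = 2) in PWK against means between 0.485 and 4.98 TPM in the other strains. On the log2(TPM + 1) scale a fall as large as that of PWK cannot be reached from such levels, so this difference is limited by the floor. In the C57 time course the mean of Cx3cr1 went from 2.39 TPM to 0.0445 TPM after 24 hours, a log2 fold change of -1.70.

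For genes whose rise was smaller in PWK, SPRET took a large part in the mean of the others. Ccl9, a chemokine for CCR1, had 36.1 and 37.5 TPM basally in PWK and 62.2, 65.5 and 66.6 TPM after IL-4 (log2 fold change 0.80), and its response differed by -4.79 from SPRET and by 0.26 from NOD (adjusted p = 0.073). Socs1 had a log2 fold change of 0.95 in PWK, 2.91 in C57, 5.70 in SPRET and -0.21 in NOD. Il4i1, a secreted amino acid oxidase, rose from 5.00 and 6.20 TPM to 21.0, 15.2 and 19.1 TPM in PWK (log2 fold change 1.55), and by between 1.49 and 4.43 in the other strains. Its difference from NOD was 0.06 (adjusted p = 0.89). The fall of Il6 in PWK differed by -1.19 from the mean of the others and by 0.48 from NOD (adjusted p = 0.24), where Il6 also fell. Without basal replicate 2 the difference for Il6 was -0.98 and not called. With a pseudocount of 5 TPM the differences of Il6, Socs1 and BC117090 were -0.51, -0.97 and -0.95. Of the genes named by the study, Arg1 responded by 1.75 more in PWK than the mean of the others (standard error 0.20, adjusted p = 5.3e-07), with 6.83 in SPRET, 4.75 in C57, 4.57 in BALB and 3.59 in NOD. After IL-4 its mean was 2151 ± 26.4 TPM (SD, n = 3) in PWK and 3411 TPM in C57, and basally 20.2 ± 4.98 TPM (SD, n = 2) and 126 TPM. Egr2 and Slc7a2 differed by 0.20 and -0.02 (adjusted p = 0.24 and 0.91).

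The time course of C57 BMDMs shared no library with the PWK comparison. Of the 183 genes induced in PWK, 174 were tested there, and 29 were induced after 1 hour, 82 after 6 hours and 97 after 24 hours, against 0.703%, 1.56% and 2.85% of all genes tested. At 24 hours 3 of the 174 were repressed. At none of the 3 times were 58 induced, and 32 were induced at 24 hours and not before. Ch25h was at 1.31 TPM before and 110 TPM after 1 hour of IL-4. Cx3cr1 went from 2.39 TPM to 0.310 TPM after 6 hours and 0.0445 TPM after 24 hours. Arg1 had means of 83.9, 245, 2573 and 1974 TPM at 0, 1, 6 and 24 hours. Rbp4 came late, with 0.0605 TPM after 1 hour, 0.405 TPM after 6 hours and 32.9 TPM after 24 hours. Dut had 3.78, 5.54, 24.2 and 56.7 TPM at the 4 times. Of the 65 repressed genes, 51 were tested in the time course, and 27 were repressed after 24 hours, against 2.91% of all genes tested, while 1 was repressed after 1 hour, against 0.174%, and 11 after 6 hours, against 0.571%.

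In the Egr2 comparison the targeted gene was first examined. Egr2 had 101 and 99.5 TPM in the floxed control libraries after 24 hours of IL-4 and 4.72 and 7.05 TPM in the knockout libraries (log2 difference -3.90, standard error 0.18). Of the genes induced in PWK, 172 were tested, and 35 were lower and 26 higher in the knockout, against 2.14% and 2.42% of all genes tested. Their median difference was 0.01, and that of all genes tested was 0.12. Rbp4 was at 44.8 and 40.2 TPM in control cells and at 0.887 and 0.994 TPM in the knockout (log2 difference -4.49, standard error 0.19, adjusted p = 6.3e-09). Itgax was at 159 and 164 TPM in control cells and at 6.83 and 7.25 TPM in the knockout (log2 difference -4.34). Clec7a was lower by 1.63, Mmp12 by 2.51, Olr1 by 2.49 and Cish by 1.12 on the log2 scale. Of those that were higher, Ccl8 had 140 TPM in both control libraries and 972 and 950 TPM in the knockout (log2 difference 2.77, standard error 0.18). Ms4a4a was higher by 3.25, Ccl7 by 1.64, Ccl12 by 1.57, Clec10a by 1.37 and Gatm by 1.18. Arg1 had 3479 and 3411 TPM in control cells and 2883 and 3101 TPM in the knockout (log2 difference -0.20, adjusted p = 0.54). Of the PWK-repressed genes 52 were tested, and 2 were lower and 8 higher in the knockout.

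**Figure D5:**
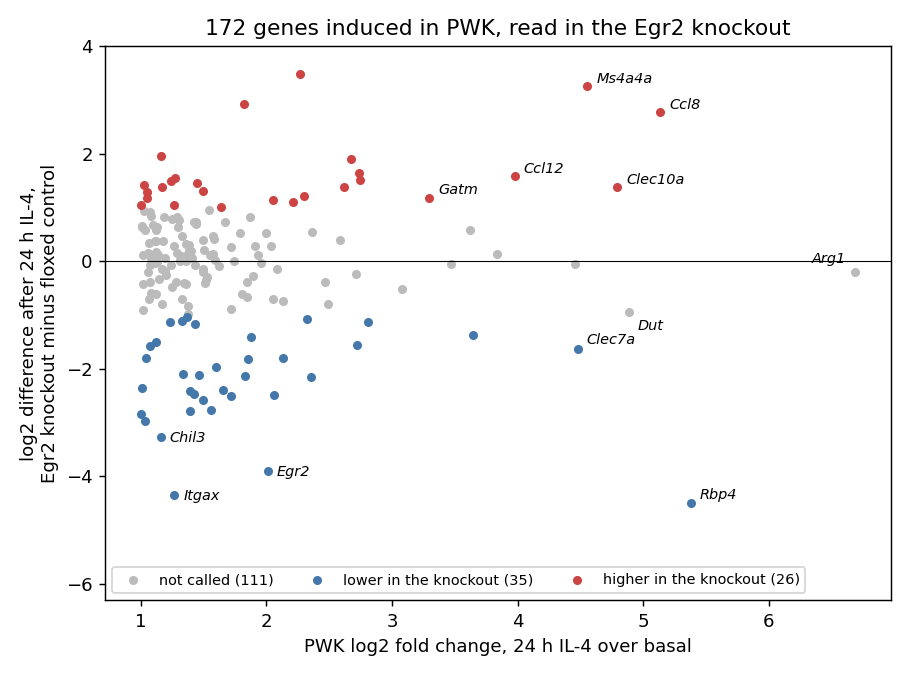
For 172 genes induced in PWK BMDMs, the PWK log2 fold change on the horizontal axis and the log2 difference between Egr2 knockout and floxed control BMDMs after 24 hours of IL-4 on the vertical axis. Blue points are 35 genes lower and red points 26 genes higher in the knockout, with Rbp4 and Itgax lowest and Ms4a4a and Ccl8 among the highest.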

How the data were processed

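Poly(A) RNA was sequenced. Reads were aligned by the authors with STAR 2.5.3 to strain genomes built with MMARGE 1.0, moved to mm10 positions, and quantified with HOMER 4.11.1, and TPM values per gene were deposited. Fold changes and p-values of the authors' own comparisons stand in the same tables and were not used. The tables hold no read counts, so precision comes from the replicates. Values of log2(TPM + 1) of 29 libraries were fitted with limma 3.58.1 (R 4.3.3), with a mean for each strain and treatment, 1 shared estimate of spread and trended empirical Bayes moderation. The fit took in 11907 genes that reached 1 TPM in 2 libraries or more, and adjustment was by Benjamini and Hochberg over all of them. On this scale the changes of low genes are understated. The Egr2 table (12079 genes) and the time course (12088 genes) were fitted separately in the same way. The study's methods call the libraries biological replicates. Whether they came from separate mice is not given in the sources used here, so p-values measure only the spread between these samples.

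The text names the 15 largest rises and the 15 largest falls in PWK with separated libraries, the 8 largest differences from the other strains in each direction (for all of these, a mean of at least 5 TPM in the higher PWK group), up to 4 called members of each list and direction, members that define a list, and genes the study names, of which 1 is not reported here. Predicted genes were only counted. Other list members, such as Fpr1, Il12b, Ppbp, Il1b, Igf1, F10, Ccl5, Clec4n, Marco, Saa3, Sat1, Abcg1, Hmox1 and H2-Ab1, were picked after their values were seen, as were the genes read in the time course and the Egr2 knockout. Members and gene lists were chosen with earlier results of these data known. The fit was tested on simulated data. Alternatives were other pseudocounts, filters and scalings, a robust prior, sample weights, a replicate block, a fit of the compared groups alone, and leaving out each library. Plots were made in Python 3.11.15 with matplotlib 3.10.9.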

Additional observations from a re-analysis of the deposited data

Results flagged for a closer look

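For 16 genes the IL-4 response in PWK differed from the mean response of the other 4 strains by over 2-fold in limma's test of the difference itself, and they are the 8 largest in each direction among genes with a mean of at least 5 TPM in a PWK group, which leaves out low genes such as Ccl24 and Chil3. Larger responses in PWK were those of Clec10a (3.05 on the log2 scale), Ccl8 (2.64), Tarm1 (2.60), Mustn1 (2.51), Gatm (2.22), Mgl2 (1.87), Ednrb (1.83) and Fxyd2 (1.76). Smaller or more negative responses were those of BC117090 (-2.34), Stfa1 (-2.05), BC100530 (-1.95), Cx3cr1 (-1.90), Ccl9 (-1.74), Socs1 (-1.44), Il4i1 (-1.33) and Il6 (-1.19). Fxyd2 and Ccl9 were among those with no called change in PWK itself, and Socs1 was too. The PWK response of Socs1 was larger than that of NOD by 1.16 (adjusted p = 0.013), opposite in sign to its difference from the mean. With 2 basal and 3 IL-4 libraries in PWK, single libraries were not examined for values that stand apart.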

How the results depend on the processing

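The pseudocount moved the counts most. With 0.1 TPM, 335 genes were induced and 111 repressed in PWK, and 166 responses were larger and 71 smaller than the mean of the other strains. With 5 TPM these were 92 and 25, and 24 and 11. Leaving out each PWK library in turn gave 174 to 195 induced, 53 to 65 repressed, 66 to 81 larger and 34 to 49 smaller. A fit with 1 basal library left assumes that it varies like the other groups. The same step gave 92 to 97 PWK-induced genes in the time course at 24 hours and 32 to 36 lower in the Egr2 knockout. Rescaling by the median of gene ratios gave 154 induced and 85 repressed, and quantile normalization 153 and 82.

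The replicate numbers were checked for pairing. Of 14 pairs of same-numbered libraries, 2 had deviations correlated above 0.1 (mean r 0.035). The values ran from -0.085 to 0.333, and the BALB pairs were at 0.333, 0.153 and 0.089. With so few libraries per group, this check cannot decide whether same-numbered libraries share a mouse or culture. With the replicate block, in which IL-4 replicate 3 has no basal partner and adds nothing to the PWK estimate, 192 genes were induced and 63 repressed, 76 responses were larger and 42 smaller, with 96 genes induced at 24 hours of the time course and 34 lower without Egr2. A fit of the compared groups alone could not be made for the difference between strains, which uses all of them. Of 384 listed or named genes, 69 were called in PWK, and 48 of these were called under all 15 settings. No result changed direction. Chil3, Fcgr2b and Ocstamp lost their call without 1 library, as given with their values. BC100530 lost its call with a pseudocount of 0.1 TPM (adjusted p = 0.098). With 5 TPM the calls of Batf3, BC117090, Ccl24, Cdh1, Ednrb, Fpr1, Hbegf, Igf1, Il12b and Il6 were lost. Those of Olr1, Pilrb2, Ppbp, Slc2a3, Tlr4, Tlr8, Tnf, Chil3, Fcgr2b and Ocstamp were lost too. This pseudocount shrinks the fold changes of low genes. Fcgr2b is not low and sat at the threshold, with 1.01 in the main fit and 0.99 with 5 TPM. The cause of these losses was not tested. Depth limits genes near 1 TPM.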

Other observations

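Some called genes had a called neighbour. With neighbours taken as genes called in the same direction within 200 kb, 45 induced genes lay in 20 groups and 16 repressed genes in 7 groups. These counts were not tested against other genes. Besides the chemokine, lectin and stefin groups, Csf2rb and Csf2rb2, which encode β chains of the receptors for GM-CSF, IL-3 and IL-5, lie together on chromosome 15 and were both induced. Serpina3g and Serpina3n, protease inhibitor genes, were a pair on chromosome 12, and the C-type lectin gene Clec7a and Olr1 a pair on chromosome 6. Among repressed genes, Saa1 and Saa2, acute-phase genes, lay together on chromosome 7. Neighbours of the same family can share reads. MicroRNA genes made up 5 of the induced and 7 of the repressed genes. Poly(A) libraries do not measure mature microRNAs, so these values are reads over the loci.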
